A study of Mus musculus with 8 samples.

Results

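The BCL2 family genes described here are 9 genes whose proteins decide whether a cell keeps its mitochondria intact or dies by apoptosis: Mcl1, Bcl2, Bcl2l1, Bcl2l2, Bcl2l11, Bid, Bak1, Bad and Bmf. They were taken by name, as the probe set rows that the platform annotation maps to 1 symbol, and the row with the highest mean was kept where a gene had several. All 9 were found, among 22180 genes with such a row. Transcripts were measured on 8 Affymetrix arrays, 1 for each mouse, in Ly6C-high myeloid cells sorted from tumours as CD45+ CD11b+ Ly6Chi, the surface profile of inflammatory monocytes and young macrophages. All hosts were female C57BL/6 mice, 8 weeks old, and each carried a subcutaneous tumour grown for 14 days from line 152, a single pancreatic cancer line that came from a spontaneous tumour of the KrasLSL-G12D/+, Trp53LSL-R172H/+, Pdx1-Cre (KPC) genotype. In that genotype the Pdx1 promoter confines Cre to pancreatic lineages, so the mutant alleles belong to the tumour line and the sorted host cells are those of C57BL/6 mice. The irradiated group (n = 4) received 20 Gy to the tumour and the sham group (n = 4) the procedure without radiation, and cells were taken 1 day later.

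The family works through direct contacts between its proteins. Pro-survival members (BCL2, BCL-XL, BCL-W and MCL1) hold the pore-forming effectors in check, and BH3-only members (BIM, BID, BAD and BMF) carry death signals by binding into a groove of the pro-survival proteins or by activating the effectors. Monocytes are short-lived cells, and MCL1, a protein with fast turnover, is known to keep many myeloid cells alive. Much of the family's control lies in protein stability, phosphorylation and cleavage, which arrays of RNA do not measure.

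The comparison asked which of these transcripts differed between tumours irradiated 1 day earlier and sham-treated tumours. None of the 9 passed the threshold of 0.05 after Benjamini-Hochberg adjustment over all genes in limma, a moderated linear model, where 0% of all genes passed. At an unadjusted p under 0.05 stood 1 member, the BH3-only gene Bid, which was lower after irradiation; of all genes 6.07% were under that value, 4.03% of them lower and 2.05% higher, as shares of all genes. The differences of the 9 members ran from -0.28 for Bid to 0.18 for Bcl2l11 on the log2 scale. The median difference was -0.06 for the members and -0.03 for all 22180 genes, and 6 of 9 members were lower and 3 higher, beside 57.8% and 42.2% of all genes. The median 95% interval over all genes reached 0.30 to either side, so small differences could not be resolved with these 8 arrays.

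The arrays were alike as a whole, with log2 medians (all levels here are log2 values after RMA) between 4.68 and 4.73 and pairwise correlations of 0.976 to 0.988 over all rows. The 9 markers of the sort and of monocytes (among them Ptprc, Itgam, Ly6c2, Ccr2 and Csf1r) averaged 11.19 to 11.35 on sham arrays, and 11.13 to 11.39 on irradiated ones. Ly6c2, a gene of the Ly6C gate, was the least even of the 9. It read 11.41, 11.98, 11.79 and 11.03 on the sham arrays (mice 1 to 4), and 12.45, 11.88, 10.77 and 11.94 on the irradiated arrays. Markers of cells that the gate could carry along were uneven. The mean of 21 T and NK cell markers ran from 5.33 to 7.52 on sham arrays, against 5.32 to 6.50 after irradiation, with sham mice 2 and 3 highest. The mean of 13 neutrophil markers lay between 6.89 and 8.47 and between 6.08 and 7.27, with sham mouse 3 highest. For 9 B cell markers the means ran from 5.25 to 6.16 (sham) and from 4.95 to 5.69 (irradiated). For 7 dendritic cell markers they lay between 6.31 and 6.53 and between 6.07 and 6.36. For 9 markers of stroma and tumour cells they lay between 5.87 and 7.76 and between 6.22 and 7.41. In RNA from sorted pools, fewer cells of a type and less RNA per cell cannot be told apart.

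Among the pro-survival genes, Mcl1 was the most even from mouse to mouse. It read 11.68, 11.64, 11.58 and 11.83 on the sham arrays (mice 1 to 4), and 11.63, 11.53, 11.71 and 11.60 on the irradiated arrays. The groups overlapped almost wholly, with 1 irradiated mouse below the lowest sham mouse and none above the highest. The difference was -0.06 ± 0.10 (SE; adjusted p = 0.937 in limma), and its 95% interval ran from 0.82-fold to 1.11-fold. It was -0.016 without sham mouse 4, -0.036 without irradiated mouse 2, -0.10 without sham mouse 3 and -0.13 without sham mice 2 and 3 together. Mcl1 had a pooled SD within groups of 0.09, lower than that of all but 5.88% of genes; among the 201 genes within 0.5 of its level 28.9% had a smaller SD. A dimmer probe set row of Mcl1 differed the other way, with sham arrays at 11.45 ± 0.11 and irradiated arrays at 11.52 ± 0.07 (SD, n = 4 per group), which makes 0.07. The sign of the Mcl1 difference thus depended on the row.

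Bcl2, the founding pro-survival gene, was the least even of the members. It read 7.41, 7.96, 8.17 and 7.15 on the sham arrays (mice 1 to 4), and 7.42, 6.84, 7.44 and 7.96 on the irradiated arrays. High and low arrays occurred in both groups, irradiated mouse 2 lay below every sham mouse, and the highest irradiated mouse lay within the sham range. The difference was -0.26 ± 0.27 (SE; adjusted p = 0.902 in limma), with a 95% interval from 0.55-fold to 1.26-fold. It was -0.07 without irradiated mouse 2, -0.09 without sham mouse 3, -0.16 without sham mouse 2, -0.43 without sham mouse 4 and -0.44 without irradiated mouse 4. The pooled SD of 0.47 was larger than that of 94.3% of the 2153 genes of like level. The other row of Bcl2 showed the same order of high and low arrays within the sham group apart from mice 2 and 3, at 5.07, 5.78, 5.73 and 4.73, and stood at 5.10, 4.97, 5.03 and 5.49 in irradiated mice.

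The level of Bcl2, which lymphocytes also express, moved with the T and NK cell markers. Sham mice 2 and 3 and irradiated mouse 4, the highest for Bcl2, had marker means of 7.31, 7.52 and 6.42, and irradiated mouse 2, the lowest, had 5.33. The remaining arrays followed less closely: irradiated mouse 1, at 6.50, and irradiated mouse 3 and sham mouse 1, at 5.32 and 5.33, had nearly equal Bcl2 levels of 7.42, 7.44 and 7.41. Over the 8 arrays Pearson's r was 0.83 (exact permutation p = 0.0155) and Spearman's rho 0.69 (exact permutation p = 0.0694). Adjusted over the 45 pairs of a member and a marker list, these p-values became 0.176 and 0.309, and r was 0.61 without sham mice 2 and 3. Within the groups r was 0.94 in sham and 0.67 in irradiated mice. With the marker mean as a covariate the Bcl2 difference was -0.03, and without sham mice 2 and 3 together it was 0.13, in the opposite direction. Stroma and tumour cell markers moved with Bcl2 as well, with r of 0.68 (exact permutation p = 0.0669, adjusted 0.326) and rho of 0.69 (exact permutation p = 0.0694), or r of 0.60 without sham mice 1 and 3. So did B cell markers, with r of 0.68 (exact permutation p = 0.0613, adjusted 0.326) and rho of 0.64 (exact permutation p = 0.0962, adjusted 0.309). For these r was 0.20 without sham mice 2 and 3, 0.99 among sham and 0.19 among irradiated mice.

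**Figure D1:**
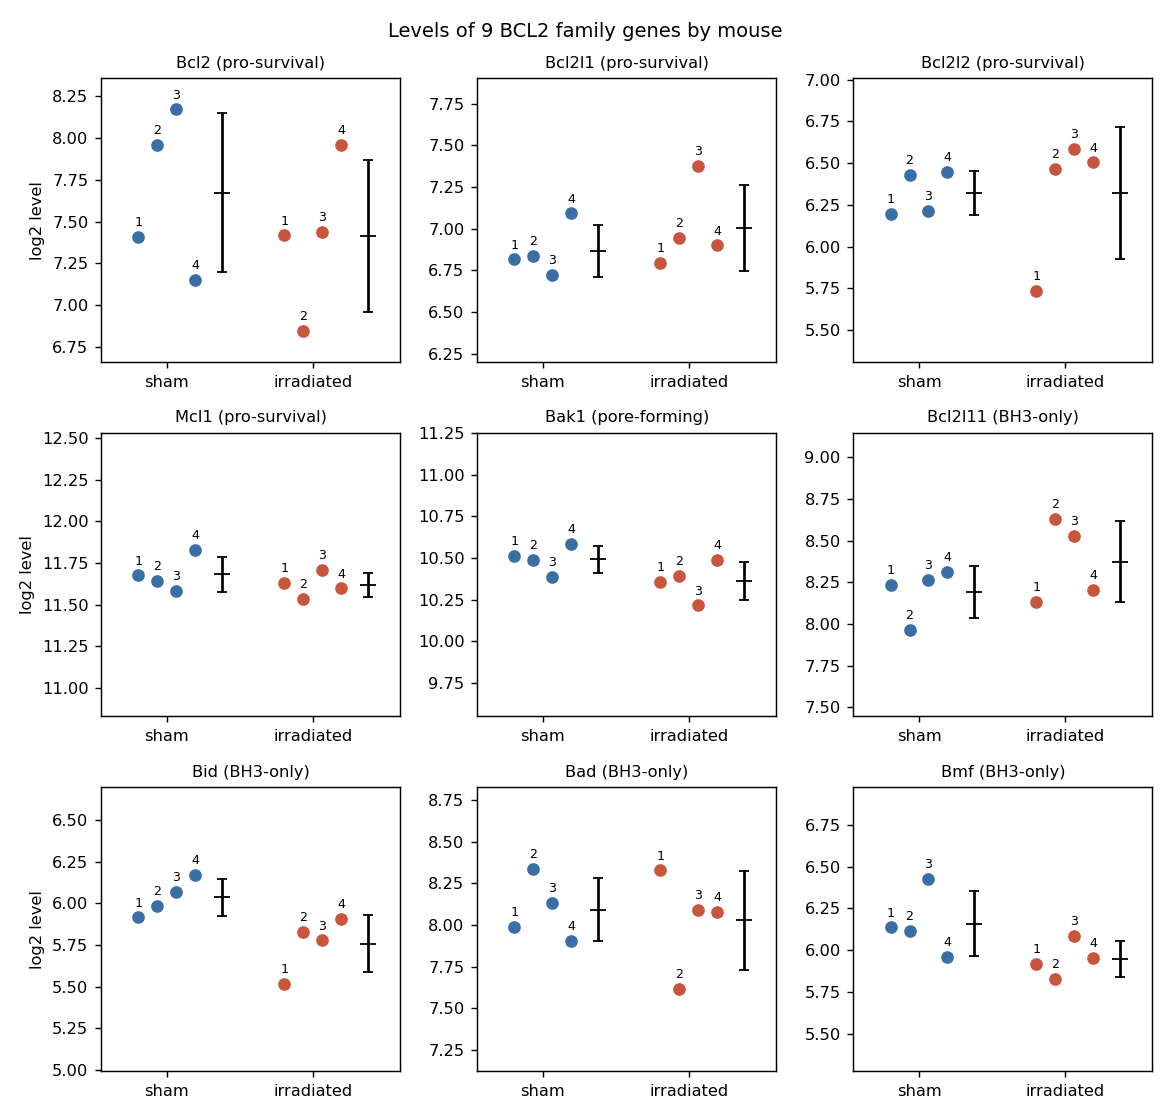
Log2 level of each of the 9 genes in sham (blue) and irradiated (red) mice; numbers are mouse numbers, the black mark and bar are the mean ± SD of 4 mice, and every panel spans the same height on the log2 scale. Mcl1 and Bak1 are tight, Bcl2 is spread widely in both groups, and Bid is the gene whose groups do not overlap.

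Bcl2l1, which encodes BCL-XL and its shorter splice form, read 6.82, 6.84, 6.72 and 7.09 on the sham arrays (mice 1 to 4), and 6.79, 6.95, 7.38 and 6.90 on the irradiated arrays. Irradiated mouse 3 alone lay above the sham mice. The difference was 0.14 ± 0.14 (SE; adjusted p = 0.902 in limma), with a 95% interval from 0.88-fold to 1.37-fold, and it was 0.01 without irradiated mouse 3. Bcl2l1 was lower where B cell markers were higher, with r of -0.80 (exact permutation p = 0.0157, adjusted 0.176) and rho of -0.90 (exact permutation p = 0.00456, adjusted 0.103). Without sham mice 2 and 3 r was -0.84. The T and NK markers went the same way, with r of -0.61 (exact permutation p = 0.0878, adjusted 0.329) and rho of -0.76 (exact permutation p = 0.0368, adjusted 0.309). For stroma and tumour cell markers r was -0.50 (exact permutation p = 0.208, adjusted 0.521).

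Bcl2l2, the gene of BCL-W, had equal means of 6.32 in both groups. Its 4 sham values lay at 6.20, 6.43, 6.21 and 6.45. On the irradiated arrays, in the same order, it read 5.73, 6.47, 6.58 and 6.51, so that 3 mice lay above the highest sham mouse and 1 far below the lowest. The SD was 0.13 (sham) and 0.40 (irradiated), and the difference of 0.00041 (95% interval from 0.76-fold to 1.32-fold; adjusted p = 0.999 in limma) became 0.20 without irradiated mouse 1.

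Bak1, which encodes the pore-forming effector BAK that permeabilizes the outer mitochondrial membrane, read 10.51, 10.49, 10.39 and 10.58 on the sham arrays (mice 1 to 4). On the irradiated arrays, in the same order, it read 10.35, 10.39, 10.22 and 10.49. Of the irradiated mice 2 lay below the lowest sham mouse and the rest within the sham range. The difference was -0.13 ± 0.10 (SE; adjusted p = 0.871 in limma), with a 95% interval from 0.78-fold to 1.06-fold, and it was -0.08 without irradiated mouse 3. With the neutrophil marker mean as a covariate it was -0.24, and with the dendritic one, added once the data had been seen, -0.04. Most irradiated mice lay below every sham mouse for the dendritic mean, so that fit could not separate markers from treatment. Over the 8 arrays r with the dendritic markers was 0.71 (exact permutation p = 0.04995, adjusted 0.326) and rho 0.69 (exact permutation p = 0.0630, adjusted 0.309), with r of 0.30 without irradiated mice 1 and 3 and of -0.08 among sham and 0.86 among irradiated mice. With the neutrophil markers r was -0.13 (exact permutation p = 0.752, adjusted 0.890) and rho -0.14 (exact permutation p = 0.735, adjusted 0.956), or r of -0.30 without sham mouse 3 and irradiated mouse 1; it was -0.95 among sham and -0.76 among irradiated mice. Like Mcl1, Bak1 varied little between mice, with a pooled SD of 0.10, and 13.5% of the 482 genes of like level varied less.

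Bid was the member with the smallest p and the one whose groups did not overlap. BID links death receptors to mitochondria: caspase-8 cuts it, and the fragment activates the effectors. Bid read 5.92, 5.99, 6.07 and 6.17 on the sham arrays (mice 1 to 4), and 5.52, 5.83, 5.78 and 5.91 on the irradiated arrays. Every irradiated mouse was below every sham mouse, but the highest irradiated mouse came within 0.01 of the lowest sham mouse. The difference was -0.28 ± 0.11 (SE), or 0.82-fold with a 95% interval from 0.69-fold to 0.98-fold, at an unadjusted p of 0.0346 and an adjusted p of 0.819 in limma, rank 910 by p among all genes. A two-sided exact permutation test of Bid gave p = 0.0286, the smallest that the 70 assignments of the arrays allow. Groups that do not overlap always give this value, so it only restates the separation. For the other members apart from Bmf the p of that test was 0.143 or more. Groups did not overlap for 3.68% of all genes, for 2.56% with irradiated mice lower and for 1.12% with them higher, beside 1 of these 9, lower. The unadjusted p of Bid stayed under 0.05 in 12 of 21 alternative settings. It was 0.104 without irradiated mouse 1, the lowest, where the difference was -0.20. With the neutrophil marker mean as a covariate it was 0.140, and its largest value was 0.652, with the dendritic marker mean.

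Bid moved with the dendritic cell markers. Their means read 6.31, 6.31, 6.52 and 6.53 on the sham arrays (mice 1 to 4), and 6.07, 6.20, 6.08 and 6.36 on the irradiated arrays. After irradiation 5 of 7 markers were lower, or 4 of 7 under quantile normalization, beside 57.8% and 49.6% of all genes. Pearson's r was 0.91 (exact permutation p = 0.000546, adjusted 0.0246) and rho 0.90 (exact permutation p = 0.00456, adjusted 0.103). The permutations moved arrays across both groups. A sham to irradiated difference shared by Bid and the markers thus counted in these p-values. Within the groups r was 0.89 in sham and 0.76 in irradiated mice, and this was not tested. Without irradiated mice 1 and 3 r was 0.92. In a fit added once the data had been seen, with that marker mean held as a covariate, the Bid difference was -0.07 at an unadjusted p of 0.652 (adjusted p = 0.998 in limma). The marker mean on irradiated mice 1, 2 and 3 (6.07, 6.20 and 6.08) lay below the lowest sham value of 6.31. Markers and treatment thus largely coincided, and this fit could not tell their shares in the Bid difference apart. The marker mean itself differed by -0.24 between irradiated and sham mice, with the chemokine receptor gene Ccr7 at -1.01 and the plasmacytoid marker gene Siglech at -0.65, while Cd209a and Zbtb46 stood at 0.12 and 0.16, so the list did not move as a whole.

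The 250 bases before the annotated start of Bid are shown because Bid is the member with the clearest separation of the groups. They lie at chr6:120916825-120917074 of GRCm38.p6 on the minus strand, from RefSeq, and are written 5′ to 3′ with the matches to the GC box GGGCGG in capitals.
Bid: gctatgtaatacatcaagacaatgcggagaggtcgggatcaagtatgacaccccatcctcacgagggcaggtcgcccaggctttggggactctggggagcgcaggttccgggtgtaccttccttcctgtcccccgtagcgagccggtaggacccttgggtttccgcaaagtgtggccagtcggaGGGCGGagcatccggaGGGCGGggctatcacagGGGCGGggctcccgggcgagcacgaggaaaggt
The window holds 3 GC boxes and none of the other motifs searched on both strands, which were CCAAT, the TATA box TATAAA, the FOXO core TAAACA, the E-box CANNTG, the E2F core TTTGGCGC and the p53 half-site. Matches of different motifs were allowed to overlap.

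Bcl2l11 encodes BIM, a BH3-only protein that binds all pro-survival members and is needed for the death of many blood cells when growth factors run out. It read 8.24, 7.96, 8.26 and 8.31 on the sham arrays (mice 1 to 4), and 8.13, 8.63, 8.53 and 8.20 on the irradiated arrays. Irradiated mice 2 and 3 lay above every sham mouse, and irradiated mice 1 and 4 lay within the sham range. The difference was 0.18 ± 0.14 (SE; adjusted p = 0.873 in limma), the largest upward among the members, with a 95% interval from 0.91-fold to 1.40-fold. It was 0.09 without irradiated mouse 2 and 0.10 without sham mouse 2. Irradiated mice 1 and 4 were also those with more T and NK cell signal in their group, with r of -0.70 over the 8 arrays (exact permutation p = 0.0531, adjusted 0.326) and rho of -0.69 (exact permutation p = 0.0694), or r of -0.74 without sham mice 2 and 3. With the T and NK marker mean as a covariate the difference was 0.10, and with the neutrophil marker mean it was 0.32.

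Transcription of Bcl2l11 is known to respond to FOXO factors, so the first of its annotated starts is shown with the FOXO core and the GC boxes in capitals. The window lies at chr2:128125788-128126037 of GRCm38.p6 on the plus strand, from RefSeq.
Bcl2l11: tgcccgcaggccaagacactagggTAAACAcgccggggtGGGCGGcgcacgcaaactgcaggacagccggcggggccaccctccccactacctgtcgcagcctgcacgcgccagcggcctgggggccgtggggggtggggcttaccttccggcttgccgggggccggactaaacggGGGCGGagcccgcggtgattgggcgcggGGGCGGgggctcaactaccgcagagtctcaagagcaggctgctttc
It holds 1 FOXO core and 3 GC boxes, and also 1 CCAAT match that is not capitalized. Across the 15 windows of the 9 members, the FOXO core occurred in 1, beside 12% of the 32841 windows of all genes, and the GC box in 7, beside 32.7%. CCAAT occurred in 5 (33.9% of all windows), the E-box in 9 (66.2%), the p53 half-site in 1, which belongs to Bmf (7.13%), and the TATA box in 0 (12.4%). The E2F core occurred in 0 member windows, beside 0.417% of all.

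Bad encodes a BH3-only protein that growth factor signalling keeps inactive by phosphorylation. It read 7.99, 8.34, 8.13 and 7.91 on the sham arrays (mice 1 to 4), and 8.33, 7.61, 8.09 and 8.08 on the irradiated arrays. Irradiated mouse 2 alone lay below the sham mice, and it was the mouse with the highest Bcl2l11. The difference was -0.06 ± 0.16 (SE; adjusted p = 0.961 in limma), with a 95% interval from 0.75-fold to 1.22-fold, and it was 0.07 without irradiated mouse 2. With the T and NK cell markers r of Bad was 0.68 (exact permutation p = 0.0607, adjusted 0.326) and rho 0.67 (exact permutation p = 0.0831, adjusted 0.309). Without sham mice 2 and 3 that r was 0.66. For B cell markers and for stroma and tumour cell markers r was 0.57 and 0.58 (exact permutation p = 0.139 and 0.127, both adjusted 0.436). A further row annotated to both Gpr137 and Bad was not used.

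Bmf encodes a BH3-only protein held at the cytoskeleton until a cell loses its attachment. It read 6.14, 6.12, 6.43 and 5.96 on the sham arrays (mice 1 to 4), and 5.92, 5.83, 6.09 and 5.96 on the irradiated arrays. Of the irradiated mice 3 lay below the lowest sham mouse, by little for mouse 4, and mouse 3 lay within the sham range. The difference was -0.21 ± 0.12 (SE; adjusted p = 0.827 in limma), with a 95% interval from 0.72-fold to 1.04-fold, and it was -0.12 without sham mouse 3. Without sham mouse 4 it was -0.28, at an unadjusted p of 0.0457 (adjusted p = 0.903 in limma). The two-sided exact permutation test gave p = 0.0571.

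Sham mouse 3, the highest array for Bmf, was also the highest for neutrophil markers. The neutrophil means read 7.13, 7.24, 8.47 and 6.89 on the sham arrays (mice 1 to 4), then 6.08, 6.74, 7.27 and 6.17 on the irradiated arrays. After irradiation 12 of 13 neutrophil markers were lower, beside 57.8% of all genes. The list did not move as a whole. Its high mean in sham mouse 3 came with granule genes of neutrophil precursors (Camp 10.10, Ngp 10.08, Ltf 9.31, Mpo 7.06 and Elane 6.56, each highest there), while Csf3r was at its lowest of the 8 arrays there (8.07). Cxcr2, a receptor gene of mature neutrophils, was at 7.40 in that mouse, below 9.72 in sham mouse 1 and 10.04 in irradiated mouse 3, and S100a8, S100a9 and Retnlg were not highest there either. Pearson's r with Bmf was 0.89 (exact permutation p = 0.00677, adjusted 0.152) and rho 0.83 (exact permutation p = 0.0154, adjusted 0.231), and r was 0.65 without sham mouse 3 and irradiated mouse 1. Within the groups r was 0.97 in sham and 0.50 in irradiated mice. With the neutrophil mean as a covariate the Bmf difference was -0.04.

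**Figure D2:**
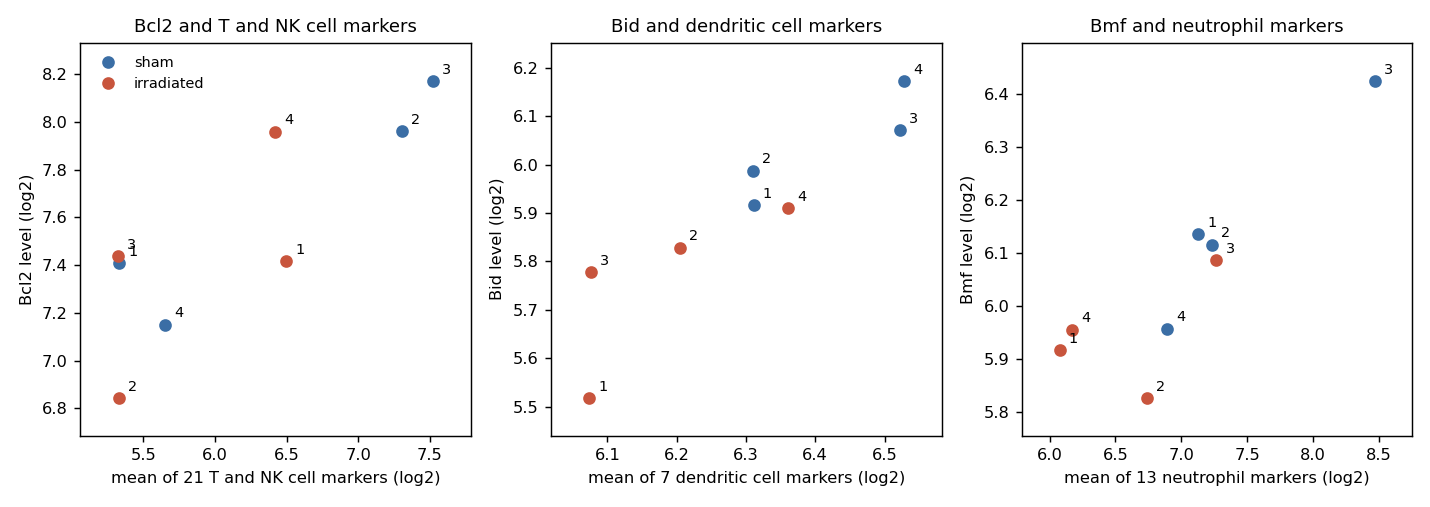
Log2 level of Bcl2, Bid and Bmf against the mean log2 level of T and NK, dendritic and neutrophil cell markers, each point 1 mouse with its number (sham blue, irradiated red). Bcl2 spans 6.84 to 8.17 along the T and NK axis, Bid is lowest in irradiated mouse 1 at 5.52, and Bmf is highest in sham mouse 3 at 6.43.

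Taking the members by role, the 4 pro-survival genes had 2 higher and 2 lower differences with a median of -0.03. The 4 BH3-only genes had 1 higher and 3 lower with a median of -0.14, beside 42.2% of all genes higher and 57.8% lower. Neither group had all its genes on the same side of 0. Outside the members, the 4 measured BH3-only genes (Bbc3, Pmaip1, Bik and Hrk) were all higher, with a median of 0.16. The 3 measured genes listed as pro-survival (Bcl2a1a, Bcl2a1c and Bcl2l10) were all higher too, with a median of 0.09. Subtracting array medians or quantile normalization left 3 members higher and 6 lower, and quantile normalization put the median of the 4 pro-survival members at 0.0015. The genes most like each member over the 8 arrays, among 11494 candidates above the median row and by Pearson's r, are a description without a test. For Bid they were Zfr (0.98), Nckipsd (0.98) and Mad1l1 (0.95), for Mcl1 Acsl4 (0.97), Abcc3 (0.96) and Pcyox1 (0.95), and for Bcl2 Ftx (0.97), Mios (0.96) and Rpph1 (0.95). For Bcl2l11 they were Ermard (0.98), Abcg4 (0.96) and Mrgpra1 (0.94). The top r for the remaining members lay between 0.93 for Bcl2l2 with Pcid2 and 0.97 for Bad with Cyb5b.

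Of 19 other family genes listed, 13 had a row with 1 symbol and the other 6 were not analysed here. Of the 13, 7 were higher and 6 lower after irradiation, with a median of 0.04, beside 42.2% and 57.8% of all genes. None passed adjusted over all genes, and 1 stood at an unadjusted p under 0.05, beside 6.07% of all genes. That gene was Bbc3, which encodes the p53-induced BH3-only protein PUMA. It read 5.38, 5.09, 5.10 and 5.28 on the sham arrays (mice 1 to 4), and 5.32, 5.46, 5.63 and 5.62 on the irradiated arrays. The groups overlapped only through irradiated mouse 1, and the difference was 0.30 ± 0.12 (SE; unadjusted p = 0.0277, adjusted p = 0.819 in limma). The unadjusted p was above 0.05 in 9 of 21 alternative settings, up to 0.236 without sham mice 2 and 3 together, where the difference was 0.18. Pmaip1, the gene of the related protein NOXA, read 6.95, 7.01, 6.72 and 6.82 on the sham arrays, and 6.93, 7.07, 7.55 and 6.83 on the irradiated arrays, a difference of 0.22 that was 0.07 without irradiated mouse 3. The remaining BH3-only genes Bik and Hrk, both under the median row of 4.70, differed by 0.07 and 0.10.

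The pro-survival genes Bcl2a1a and Bcl2a1c, members of a cluster of near-identical copies whose signals the probes may not separate, differed by 0.04 and 0.42. Bcl2a1c read 5.31, 5.18, 5.02 and 4.64 on the sham arrays, and 5.33, 5.67, 5.82 and 5.02 on the irradiated arrays (unadjusted p = 0.0563, adjusted p = 0.822 in limma). Bcl2l10, at the bottom of the scale with 2.64 and 2.73, differed by 0.09, and the effector-like gene Bok by -0.07. The 5 divergent family genes Bcl2l13, Bcl2l14, Bcl2l15, Bnip2 and Bnip3 were all lower, beside 57.8% of all genes. Their differences were -0.23 to -0.11, with adjusted p of 0.835 or more in limma. Bcl2l14 and Bcl2l15 lay under the median row, and Bnip3 was 0.0075 without sham mouse 4.

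**Figure D3:**
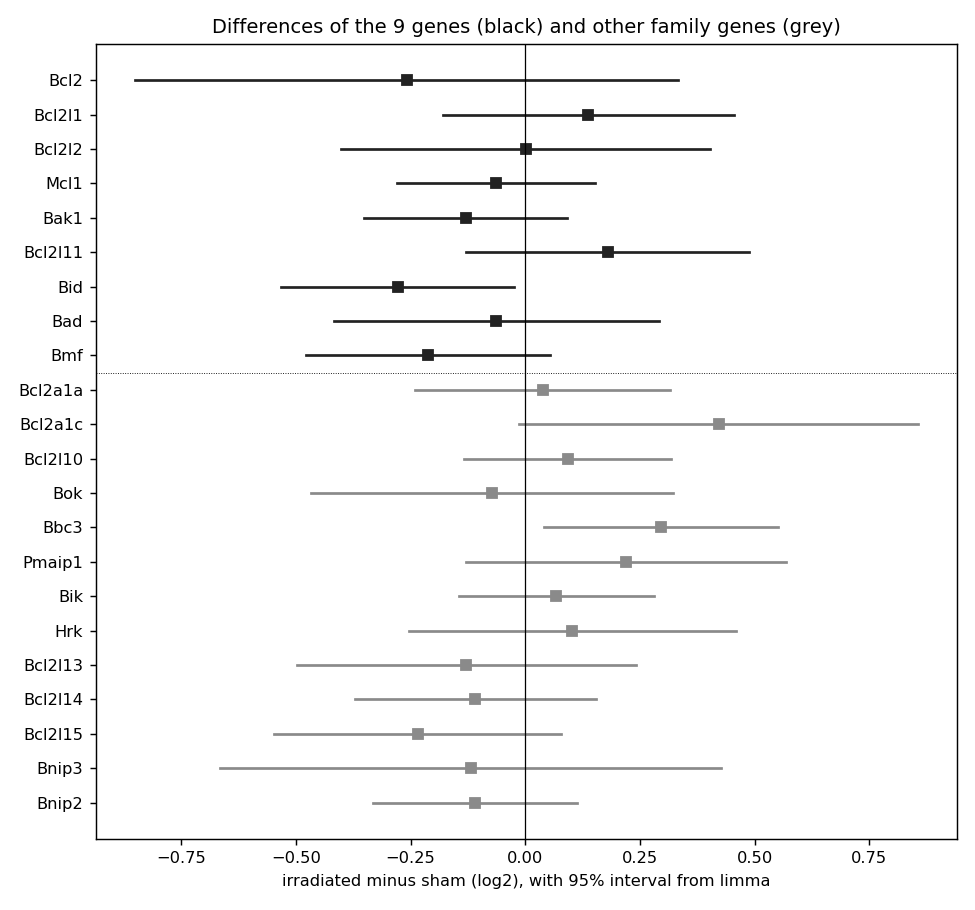
Difference between irradiated and sham mice on the log2 scale with its 95% interval from limma, for the 9 genes (black) and 13 other family genes (grey). The interval leaves out 0 for Bid (-0.28) and Bbc3 (0.30) before adjustment over all genes.

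Further along the pathway, 18 genes were listed for the apoptosome, caspases and their inhibitors, a list that also held Aifm1, Endog, Vdac1, Vdac2, Dffa and Dffb. Of the 18 genes, 16 had a row with 1 symbol. Among these 16, 13 were lower, with a median of -0.13, beside 57.8% of all genes. None stood at an unadjusted p under 0.05. Under quantile normalization 11 were lower, with a median of -0.08, beside 49.6% of all genes. The smallest p-values were those of Aifm1, which encodes the mitochondrial protein AIF, at -0.32 ± 0.15 (SE; unadjusted p = 0.0534, adjusted p = 0.822 in limma), and of the mitochondrial nuclease gene Endog at -0.23 ± 0.14. Aifm1 was at -0.20 without irradiated mouse 2, and Endog at -0.12 without sham mouse 4. Of the 8 measured genes of the death receptor arm, which feeds into BID, 5 were higher and 3 lower, with a median of 0.09. Of all genes 42.2% were higher. Tnfrsf10b, the mouse TRAIL receptor gene, read 3.96, 4.16, 4.63 and 3.95 on the sham arrays (mice 1 to 4), and 4.73, 4.83, 5.44 and 4.75 on the irradiated arrays. Its groups did not overlap, with irradiated mice higher, as for 1.12% of all genes. The difference of 0.76 ± 0.20 (SE) had an unadjusted p of 0.00317 and an adjusted p of 0.819 in limma. The sham mean of Tnfrsf10b lay under the median row, as did its mean over all 8 arrays of 4.56. Its difference was 0.59 without irradiated mouse 3. With the neutrophil marker mean as a covariate it was 1.18 (unadjusted p = 1.35e-05, adjusted p = 0.09995 in limma). The adaptor gene Fadd differed by -0.31 ± 0.20, and by -0.50 without sham mouse 3, -0.16 without sham mouse 4 and -0.67 with the neutrophil marker mean as a covariate. The unadjusted p of that last value was 0.0053 and its adjusted p 0.816 in limma.

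Of 22 measured genes that are known to regulate the members, 11 were higher and 11 lower, with a median of -0.0048 that became 0.04 under quantile normalization, where 14 were higher. Foxo3, a transcription factor gene that acts on Bcl2l11 and Bbc3, read 6.10, 6.18, 6.08 and 6.34 on the sham arrays (mice 1 to 4). On the irradiated arrays, in the same order, it read 6.32, 6.47, 6.88 and 6.52. The groups overlapped only through irradiated mouse 1, below sham mouse 4. The difference was 0.37 ± 0.13 (SE; unadjusted p = 0.0177, adjusted p = 0.819 in limma). The kinase gene Pim1 differed by 0.22 ± 0.16, and by 0.10 without sham mouse 3.

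**Figure D4:**
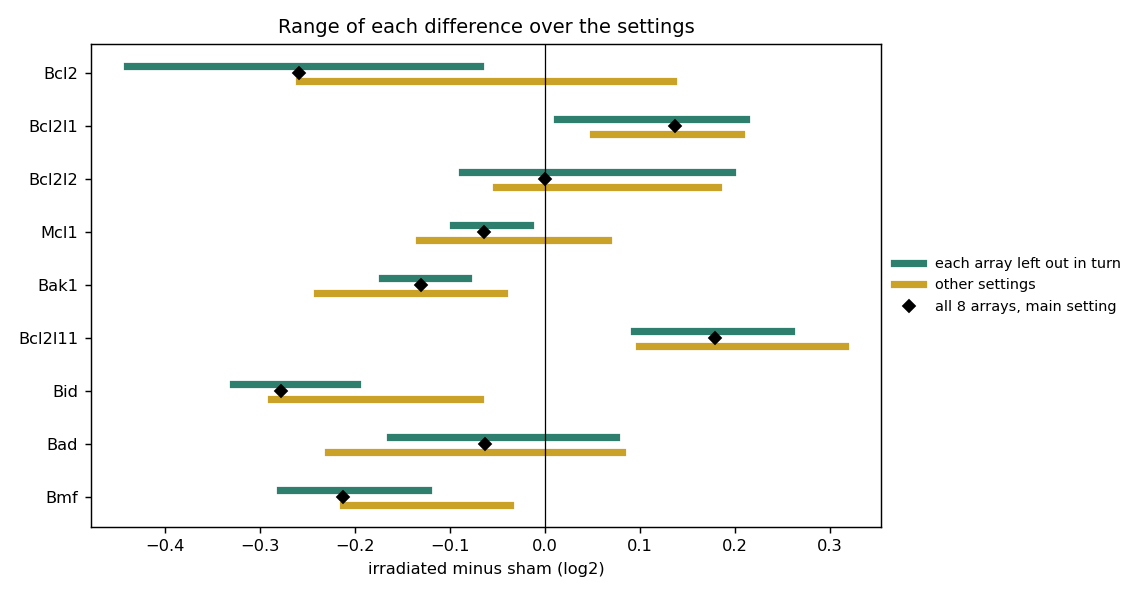
Range of each member's difference (log2) with each array left out in turn (green) and under the other settings (yellow), with the value from all 8 arrays (diamond). The ranges of Bcl2, Bcl2l2, Mcl1 and Bad cross 0, and those of Bcl2l1, Bak1, Bcl2l11, Bid and Bmf do not.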

How the data were processed

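The authors deposited 1 log2 value per probe set row and array; the log2 scale was read off the values. RMA and Partek are named without versions, per the submitters' processing notes, and their settings were not stated in the labels. Per the labels' protocols, the input was 25 ng of RNA, amplified by ribo-SPIA. Of 34365 rows, 23521 had 1 symbol in the platform annotation, and the row with the highest mean was kept for each of 22180 genes, with no filter on dim genes. Groups came from the sample titles, 1 array per mouse. The test was that of limma 3.58.1 (R 4.3.3; lmFit and eBayes, two-sided; Benjamini-Hochberg over all genes, threshold 0.05); differences are irradiated minus sham. Exact permutations used Python 3.11.15, and plots matplotlib 3.10.9. Those of a member with a marker list moved arrays across both groups, so a shared group difference counts in their p. The fit was tested on simulated data. Named genes are all members, all measured family genes of the lists and the 2 smallest p-values of each pathway list; likeness takes the 3 highest r. Members and lists were chosen with earlier results of these data known. No scan dates or batches were used; precision is limited by having 4 arrays per group. Alternatives were other scalings, rows, filters, variance models, covariates and samples left out.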

Additional observations from a re-analysis of the deposited data

Results flagged for a closer look

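In the irradiated group, Bcl2l2 stood at 5.73 in mouse 1, far from the 6.47 to 6.58 of the other 3 mice: the gap took 0.86 of the group's whole range, above the critical value of 0.829 for 4 samples. It was the single such value among the 18 groups of 4 checked, 2 for each of the 9 members, where chance gives about 1 in 20. Without this mouse the Bcl2l2 difference was 0.20 at an adjusted p of 0.817 in limma. The same mouse was the lowest for Bid, at 5.52.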

How the results depend on the processing

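No member passed the adjusted threshold under any of the 21 alternatives, and their adjusted p lay between 0.697 and 1.00. Over all genes 0 passed, apart from 1 without irradiated mouse 1 (range 0 to 1 with each array left out). Bcl2l1, Bak1, Bcl2l11, Bid and Bmf kept their direction in all alternatives. The Mcl1 difference was 0.0012 with the mean of its rows and 0.066 with its dimmer row. With the T and NK marker mean as a covariate the differences were 0.039 for Bad, -0.052 for Bcl2l2, -0.017 for Bcl2a1a and 0.034 for Bok. With the neutrophil mean they were -0.019 for Bcl2a1a, 0.032 for Bok and -0.049 for Hrk. With the dendritic mean, chosen after seeing the data, they were -0.018 for Bcl2a1c, 0.036 for Bcl2l14 and -0.068 for Pmaip1. Without sham mice 2 and 3 together they were 0.081 for Bad, 0.13 for Bcl2, -0.054 for Bcl2a1a, 0.064 for Bok and -0.00019 for Pim1, which was -0.061 with its dimmer row. With each array left out, the ranges that crossed 0 were -0.16 to 0.075 for Bad, -0.087 to 0.20 for Bcl2l2, -0.014 to 0.14 for Bcl2a1a, -0.19 to 0.079 for Bok, -0.36 to 0.0075 for Bnip3 and -0.011 to 0.22 for Hrk. The cause was not tested. The median difference of all genes was 0.0017 under quantile normalization. Without dim genes (9868 of the 22180, under the median row) 805 genes stood at an unadjusted p under 0.05, against 1347 of all 22180. These counts come from different numbers of tested genes. The number of members under that value was 1, and 0 under quantile normalization, a trended and robust variance, the neutrophil or dendritic covariate, without sham mice 2 and 3, or without sham mouse 3 or irradiated mouse 1 or 3. That member was Bid except without sham mouse 4, where it was Bmf and Bid was above that value. Mouse numbers are shared by the groups but do not pair the mice: same-numbered deviations correlated at -0.28 to -0.14, and no array correlated best with its own number. With the mouse number as a replicate block, 0 genes passed and 1065 stood at an unadjusted p under 0.05, and the Bid difference had an adjusted p of 0.957. The level over background was not measured.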
